A study of Mus musculus with 103 samples.

Results

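The genes described are the clustered protocadherins of the mouse, taken as every row whose symbol starts with Pcdha, Pcdhb or Pcdhg. The RNA-seq table held 59 such rows of 23339: 15 of the alpha array, 22 of the beta array and 22 of the gamma array. Among the alpha rows, 13 were alternate members and 2 were C-type members (Pcdhac1 and Pcdhac2). Among the gamma rows, 19 belonged to the A and B subfamilies and 3 were C-type members (Pcdhgc3, Pcdhgc4 and Pcdhgc5). Each table of nascent RNA held 57 of the members, without Pcdha4 and Pcdha4-g. Order along each array was taken by symbol from RefSeq (GRCm38), which matched 58 of the 59.

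Clustered protocadherins are adhesion proteins of the cadherin superfamily, known mostly from neurons, where each cell uses a small choice of members and the combination serves in self-recognition. In the alpha and gamma arrays each member has its own promoter and variable first exon, which is spliced to constant exons shared by the array, whereas beta members are single-exon genes. CTCF, a DNA-binding protein, and cohesin, the ring complex that includes Smc3 and is released from DNA by Wapl, bind at many of these promoters and at distal enhancers, and most promoters carry a conserved CTCF-binding element that some C-type members lack.

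The cells were mouse embryonic fibroblasts (MEFs) of strain C57BL/6 of embryonic stage E13.5, held quiescent for 10 d. Ctcf(fl/fl) cells (2 clones) and Ctcf(fl/fl) Wapl(fl/fl) cells were given Cre recombinase by adenovirus (Adeno-Cre, 4 h), as was a wild-type control (2 clones). Rosa26(CreER/+) Smc3(fl/fl) cells (clone 1), Rosa26(CreER/+) Smc3(fl/-) cells (clones 2, 3 and 4) and Rosa26(CreER/+) Wapl(fl/-) cells (2 clones) were given 4'hydroxytamoxifen for 2 to 3 d, which activates a Cre expressed from the ubiquitous Rosa26 locus, and Rosa26(CreER/+) cells (2 clones) were their control. Each treated library had an untreated counterpart of the same genotype. The main table held 27 RNA-seq libraries of polyadenylated RNA in 12 groups, and in it Ctcf(fl/fl) Wapl(fl/fl) cells had 2 untreated libraries (clones 3 and 4) and a single treated one (clone 4). Ctcf and Smc3 lines thus differ both in the gene deleted and in how Cre was delivered. The other data used were global run-on sequencing (GRO-seq), which measures RNA extended by engaged polymerases, in Ctcf(fl/fl) Wapl(fl/fl) cells, untreated and after Adeno-Cre (clones 1 and 2, pooled by the authors), after Adeno-Cre with 3.5 h of the elongation inhibitor DRB, and 1 d after DRB was removed (1 library each, with no clone in the labels). A GRO-seq column headed wild type, which does not name its libraries, and a separate table of 2 RNA-seq libraries from clone 3 of this genotype, both labelled Adeno-Cre, were also used. With floxed alleles, cells that escaped deletion remain in a treated culture, and in bulk RNA fewer cells using a member and less RNA per cell cannot be told apart.

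Libraries held 7315465 to 36831839 reads in genes, recovered from the RPKM values (reads scaled by transcript length and library size). The targeted gene Ctcf stood at 13.2 and 11.6 RPKM in the untreated Ctcf lines and at 4.23 and 4.04 after Adeno-Cre. Wapal, the symbol of Wapl, stood at 1.80 and 1.48 RPKM in the untreated Wapl lines and at 0.780 and 0.914 after treatment. Smc3 RNA stood at 7.62 to 10.5 RPKM untreated and at 10.9 to 13.2 treated, so that row does not check the Smc3 label. All 14 fibroblast markers were detected (summed RPKM 7582 to 17590 per library), against 27.01 to 226 for 19 neural and glial markers.

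In the 14 untreated libraries the arrays differed widely in level. Pcdhgc3, a gamma C-type member used in many tissues, had the highest level at 138 ± 37.0 RPKM (SD, n = 14; 88.8 to 222), and gamma C-type members made up 55.9 to 72.2% of the summed RPKM of all members. Gamma A and B members summed to 38.7 to 64.0 RPKM and beta members to 17.7 to 35.1. The alternate alpha members together reached 0.0902 to 0.536 RPKM, so the alpha array was close to silent apart from Pcdhac2 at 0.894 ± 0.508.

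Within an array the level was uneven. Pcdhb17 (5.80 ± 1.44 RPKM) and Pcdhb22 (5.05 ± 0.689) led the beta array, did not differ beyond their spread, and stood well above the next, Pcdhb20 at 1.74 ± 0.368. Pcdhb1, the first beta member, was listed at 0 in all 14 libraries. Pcdhga7 led the A and B members at 6.79 ± 1.43 RPKM, followed by Pcdhgb2 at 4.31 ± 1.25, which did not differ beyond its spread from Pcdhga12. The first A and B member, Pcdhga1, stood at 1.83 ± 0.537 and Pcdhga12, the last, at 4.15 ± 0.988. Over the 18 A and B members tested, untreated level and position were nearly unrelated (Spearman rho -0.03, a description over members that share libraries). Pcdha10 (0.147 ± 0.0641) and Pcdha12 (0.134 ± 0.0491) were the highest alternate alpha members, and Pcdha4 and Pcdha4-g were listed at 0 in all 27 libraries.

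Only members with at least 1 RPKM in at least 2 libraries were tested, with limma on log2(RPKM + 1): 33 of 59, made up of 11 beta, 18 gamma A and B, 3 gamma C-type and 1 alpha member (Pcdhac2). The other 26 were too low, including every alternate alpha member, and are given by level and reads. Where a fit with no filter on low values is used for some of them, this is said. A change is called where the Benjamini-Hochberg adjusted p over all 12604 genes is under 0.05. Fold changes on this scale understate the change of low genes, so the treated level is also given as a percentage of the untreated level.

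In the Ctcf lines every tested beta and gamma A and B member was lower after Adeno-Cre, and none of the C-type members was called. These members were also lower, by less at the median, with Adeno-Cre in wild-type cells, as given below. The limma test called 9 of 11 beta and 17 of 18 gamma A and B members lower, 0 of 3 gamma C-type members and not Pcdhac2, where 7.66% of all genes were called in either direction and 2.63% lower. The median log2 fold change was -0.72 over beta members, -1.09 over gamma A and B members and -0.16 over gamma C-type members, against 0.04 over all genes tested. Pcdhac2 had a log2 fold change of 0.50 ± 0.26 (SE, adjusted p = 0.30), not called.

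Pcdhb22, the last beta member, stood at 6.03 and 5.67 RPKM untreated and at 0.961 and 1.04 after Adeno-Cre, and fell by 1.78 on the log2 scale (SE 0.24, adjusted p 7.04e-05). Pcdhb17 stood at 6.21 and 8.76 RPKM untreated and at 1.26 and 2.01 treated (log2 fold change -1.68, SE 0.26, adjusted p 0.000301). Pcdhb20 stood at 1.62 and 1.47 untreated and at 0.268 and 0.312 treated (log2 fold change -0.98). In all of these the treated libraries lay below both untreated ones. Pcdhb14 (log2 fold change -0.77, adjusted p 0.145) and Pcdhb21 (-0.51, adjusted p 0.23) were the beta members not called, and their libraries did not overlap either. The 11 tested beta members kept between 15.2% (Pcdhb2) and 28.4% (Pcdhb5) of their untreated level. The beta members too low to test ranged from 12.35% (Pcdhb9) to 102.8% (Pcdhb10, from 7 reads untreated and 6 treated), and Pcdhb1 was listed at 0.

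Pcdhga7, the most abundant A and B member, stood at 7.98 and 4.42 RPKM untreated and at 1.31 and 1.07 treated (log2 fold change -1.67, SE 0.26, adjusted p 0.000323). Pcdhga2 stood at 4.39 and 3.80 untreated and at 0.508 and 0.771 treated (log2 fold change -1.64, adjusted p 4.15e-05). Pcdhgb2 stood at 7.45 and 5.20 untreated and at 1.32 and 1.53 treated (log2 fold change -1.58, adjusted p 0.000804). The ends of the array moved likewise: Pcdhga1 had a log2 fold change of -0.88 (adjusted p 0.011) and Pcdhga12 of -1.21 (adjusted p 0.00855). Pcdhga11 was the A and B member not called, at 1.73 and 1.19 RPKM untreated and 0.706 and 0.596 treated (log2 fold change -0.57, adjusted p 0.0884).

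The gamma C-type members lie downstream of these promoters in the same array and share their constant exons. Pcdhgc3 stood at 222 and 179 RPKM untreated and at 198 and 160 treated, with overlapping groups (log2 fold change -0.16, adjusted p 0.813). Pcdhgc5 stood at 7.07 and 7.36 untreated and at 6.80 and 6.23 treated (log2 fold change -0.13, adjusted p 0.833), and Pcdhgc4 at 2.40 and 2.14 untreated and 1.35 and 1.64 treated (log2 fold change -0.39, adjusted p 0.631). Pcdhac2, the last alpha member, went the other way, from 0.723 and 0.376 to 1.68 and 0.773, with each clone higher after treatment. Alternate alpha members summed to 0.482 and 0.320 RPKM untreated and 0.0558 and 0.0964 treated, 19.0% of the untreated level, from 141 reads against 22. Their share left was thus close to that of the beta array (21.2%) and the A and B members (25.7%), at a level too low for a test per gene.

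**Figure D1:**
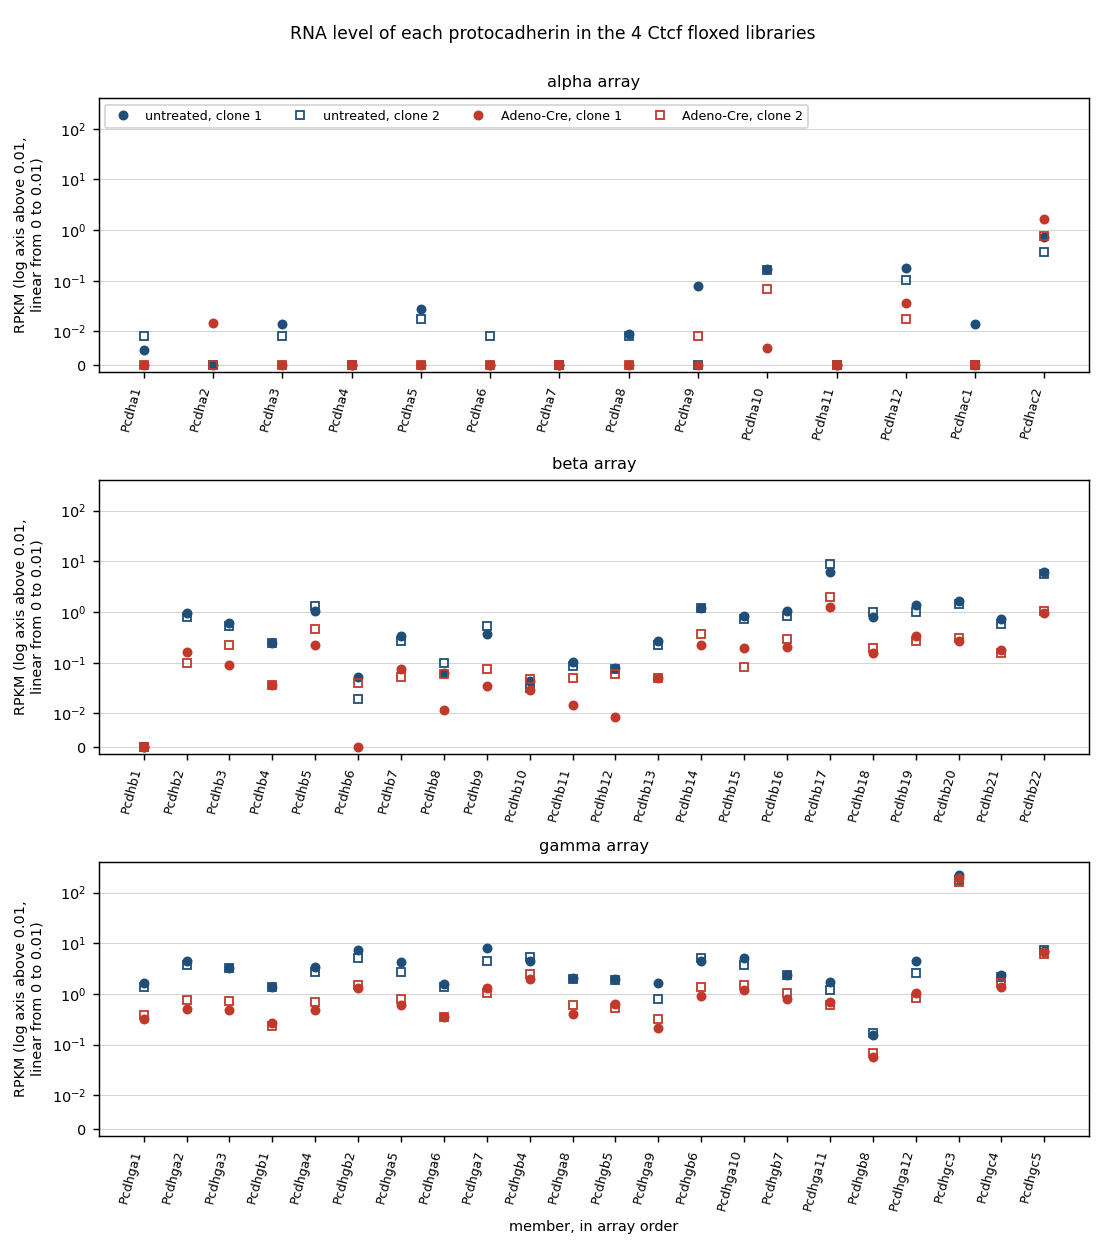
RNA level (RPKM, logarithmic above 0.01 and linear below) of each member in array order in the 4 libraries of Ctcf floxed cells; blue is untreated, red is after Adeno-Cre, circles are clone 1 and squares clone 2. Red points lie below blue ones at nearly every beta and gamma A and B member, overlap them at Pcdhgc3, lie close below them at Pcdhgc4 and Pcdhgc5, and lie above them at Pcdhac2.

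Of 33 tested members, 31 had both treated libraries below both untreated ones, where 21% of all genes did. Leaving out any 1 of the 4 Ctcf libraries left 11 to 17 of the 26 calls, the fewest without the untreated clone 1 library, and a fit of these 4 libraries alone called 0 members, with adjusted p of up to 0.202 among the 26.

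Position along the gamma array went with the share left after Ctcf deletion. The first 6 tested members from Pcdhga1 to Pcdhgb2 kept a median of 19.1% of their untreated level (15.6 to 23.6%). The middle 6, Pcdhga5 to Pcdhgb5, kept 24.0% and the last 6, Pcdhga9 to Pcdhga12, kept 28.9% (21.8 to 44.6%). The Spearman correlation of position with the log2 fold change, the planned measure, was 0.38 over the 18 members (0.32 and 0.40 in the 2 clones). With the percentage left, a measure that was not planned, it was 0.71 (0.60 and 0.74). On the log2 scale the medians of these groups of 6 were -1.37, -0.96 and -0.98, with no rise from the middle to the last. Pcdhgb4 (45.5%), Pcdhga11 (44.6%) and Pcdhgb7 (39.3%) kept the most. These members share libraries and neighbouring sequence, so the correlation has no p. In wild-type cells given Adeno-Cre the same groups of 6 kept medians of 67.2, 73.9 and 74.6% (rho 0.45 with the percentage), and in the Ctcf and Wapl double deletion 7.85, 6.85 and 7.31% (rho 0.15). The differences between these patterns were not tested. Over the 11 tested beta members the correlation after Ctcf deletion was -0.08 with the percentage and -0.20 with the log2 fold change. With the latter it was -0.50 over the 21 beta members with reads. The members added there lie below the filter, where the log2 scale used understates changes. Over the 11, the correlation with the log2 fold change was 0.79 for Adeno-Cre in wild-type cells (0.71 with the percentage) and -0.61 in the double deletion. In the 2 wild-type clones it was 0.56 and 0.58. Over the 21 it was -0.23 for Adeno-Cre in wild-type cells and -0.64 in the double deletion.

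Adeno-Cre itself was tested in wild-type cells that carry no floxed allele. No protocadherin was called by limma in this control (0 of 33, with 4 at an unadjusted p under 0.05), where 3.24% of all genes were called. Every one of the 33 members nevertheless had a fold change below 0, with a median log2 fold change of -0.32 against 0.04 over all genes. In the first wild-type clone 33 of 33 members were lower after Adeno-Cre and in the second 32 of 33, where 47.7% and 42.4% of all genes were lower. Treated libraries lay below untreated ones without overlap for 29 of 33 members, against 21% of all genes.

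In this control the beta array was at 78.7% of its untreated sum (70.9 and 86.8% in the 2 clones), the gamma A and B members at 71.9% (71.4 and 72.4%) and the gamma C-type members at 78.2%. Pcdhb22 stood at 4.93 and 5.00 RPKM untreated and 4.26 and 4.80 treated, and Pcdhga7 at 6.97 and 6.82 untreated and 5.42 and 5.47 treated. Pcdhgc3 stood at 171 and 137 untreated and 131 and 112 treated, and Pcdhgc5 at 10.7 and 9.91 untreated and 7.78 and 7.20 treated. Pcdhac2 overlapped between its groups (0.915 and 0.745 against 0.556 and 1.04). With the clone as a replicate block, 2 members were called lower, 1 of them gamma A and B and 1 gamma C-type, where 23% of all genes were called in either direction.

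The difference between the change in Ctcf cells and the change in wild-type cells was tested as a contrast of its own. It called Pcdhb22 (-1.67 on the log2 scale, SE 0.33, adjusted p 0.0115) and Pcdhga2 (-1.25, SE 0.29, adjusted p 0.0351) lower, 2 of 33 members, where 1.46% of all genes were called and 0.722% lower. The median difference was -0.45 over beta members, -0.81 over gamma A and B members and 0.18 over gamma C-type members, and 17 members had an unadjusted p under 0.05. With the clone as a replicate block 8 members were called, where 6.95% of all genes were. With the added value lowered from 1 to 0.25 or 0.1 RPKM the calls were 5 and 7, where 1.44 and 1.4% of all genes were called. Leaving out single libraries gave 0 to 2 calls: 0 without either library of Ctcf clone 1, 2 without untreated Ctcf clone 2, and 1 without treated Ctcf clone 2 or any wild-type library.

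**Figure D2:**
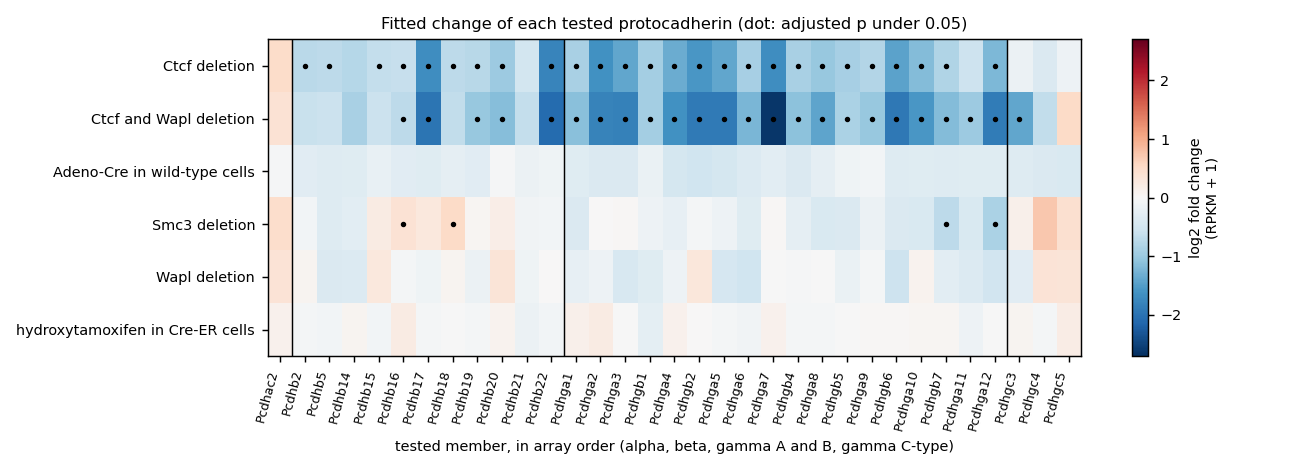
Fitted log2 fold change (RPKM + 1, treated minus untreated; colour scale) of the 33 tested members, in array order with lines between classes, in 6 comparisons; a dot marks an adjusted p under 0.05. The rows of both Ctcf deletions are blue across beta and gamma A and B members with 26 and 24 dots, the row of Adeno-Cre in wild-type cells is pale blue throughout without a dot, and the Smc3 row has 4 dots.

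In the single treated library of the double deletion of Ctcf and Wapl, every tested gamma A and B member and some beta members were called lower, with the spread taken from other groups. The limma test called 18 of 18 gamma A and B members, 5 of 11 beta members (Pcdhb16, Pcdhb17, Pcdhb19, Pcdhb20 and Pcdhb22) and Pcdhgc3 lower, 24 of 33 in all, where 15.8% of all genes were called and 5.34% lower. The lone treated library is assumed in this fit to vary like the other groups. All genes had a median log2 fold change of 0.175 here, which median-of-ratios rescaling brought to -0.003; no call of a member was lost under that rescaling. A fit of these 3 libraries alone called 0 members and 0 genes (adjusted p of up to 0.519 among the 24), the clone as a replicate block lost 3 of the calls (up to 0.235), and leaving out untreated clone 3 lost 7 (up to 0.357).

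Pcdhga7 stood at 8.44 and 6.46 RPKM untreated and at 0.362 treated (log2 fold change -2.62, SE 0.32, adjusted p 1.8e-05). Pcdhgb6 stood at 4.40 and 2.49 untreated and at 0.146 treated (log2 fold change -1.92), Pcdhgb2 at 4.91 and 3.72 against 0.399 (-1.92), and Pcdhga5 at 3.96 and 2.78 against 0.151 (-1.91). Among beta members, Pcdhb22 stood at 4.24 and 4.28 untreated and 0.241 treated (log2 fold change -2.08, adjusted p 7.85e-05), and Pcdhb17 at 3.98 and 4.21 against 0.306 (-1.96). Pcdhb20 stood at 1.44 and 1.49 against 0.109 (log2 fold change -1.15). The treated library was below both untreated ones in 31 of 33 members, where 25% of all genes were, and above both in 2 (Pcdhac2 and Pcdhgc5), where 51.3% of all genes were.

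As sums, beta members were at 8.80% of the untreated level (101 reads in the treated library) and gamma A and B members at 8.29%, or 10.6% of the untreated library of the same clone. The alternate alpha members were at 5.16%, from 2 reads against 107 (95% Poisson interval 0.625 to 18.7%, counting error only). Single A and B members kept from 3.83% (Pcdhga8, from 7 reads, interval 1.54 to 7.89%) to 25.8% (Pcdhgb4, from 59 reads) of their own untreated level. Pcdhgb4 was also the A and B member with the largest share left after Ctcf deletion alone.

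The C-type members differed among themselves. Pcdhgc3 stood at 147 and 105 RPKM untreated and at 46.7 treated, and fell by 1.39 on the log2 scale (SE 0.30, adjusted p 0.00342). Pcdhgc4 stood at 2.69 and 0.849 untreated and 0.651 treated (log2 fold change -0.66, adjusted p 0.342). Pcdhgc5 stood at 5.42 and 5.69 untreated and 8.41 treated (log2 fold change 0.52, adjusted p 0.194), and Pcdhac2 at 0.591 and 0.608 against 1.09 (0.38, adjusted p 0.452). The last 2 were therefore higher in the treated library but not called.

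Set against the change in wild-type cells, the double deletion lowered 9 of 33 members, where 3.87% of all genes were called and 1.72% lower. Pcdhga7 differed by -2.33 (SE 0.41, adjusted p 0.0024), Pcdhb22 by -1.97 (adjusted p 0.00463) and Pcdhb17 by -1.64 (adjusted p 0.0277). Pcdhgb6, Pcdhga12, Pcdhga3, Pcdhga5, Pcdhga2 and Pcdhga4 differed by -1.57 to -1.16. This contrast shares its wild-type libraries with that of Ctcf alone, so the calls of both are not separate evidence. Leaving out single libraries gave 3 to 13 calls, with 3 without the first treated wild-type library or untreated clone 3 of the floxed line, and 4 and 5 without the first and second untreated wild-type library. The difference between the double deletion and Ctcf deletion alone was called for 0 of 33 members by limma (2 at an unadjusted p under 0.05), where 1.38% of all genes were called. Its median was -0.36 over gamma A and B members and -0.09 over beta members, and Pcdhgc3 differed most, by -1.23. This scale understates changes of low members such as the beta ones. As sums, beta members were at 21.2% of the untreated level after Ctcf deletion and at 8.80% in the lone double deletion library. Gamma A and B members were at 25.7% and 8.29%. The differences between these percentages were not tested.

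A separate table held a pair of libraries labelled Adeno-Cre of clone 3 of the same genotype, normalized apart from the main table, so its values are set beside those of the main table without a test. The authors named the table for serum stimulation, while the labels of both libraries give Adeno-Cre and 10 d of rest, with no serum. In library 28014 gamma A and B members summed to 5.42 RPKM and beta members to 1.502, close to the treated clone 4 library of the main table (4.10 and 1.57). In library 28018 they summed to 37.4 and 12.1 RPKM, nearer to untreated clone 3 (60.3 and 17.7). Ctcf itself stood at 3.17 RPKM in library 28014 and 7.62 in library 28018, so the library labelled 28018 goes against its label at the targeted gene. Pcdhac2 (1.33 against 0.481) and Pcdhgc5 (7.14 against 4.79) were the 2 tested members higher in library 28014, and the other 31 were lower there, Pcdhgc3 included (56.4 against 100.1). These same 2 members were above both untreated libraries in clone 4.

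**Figure D3:**
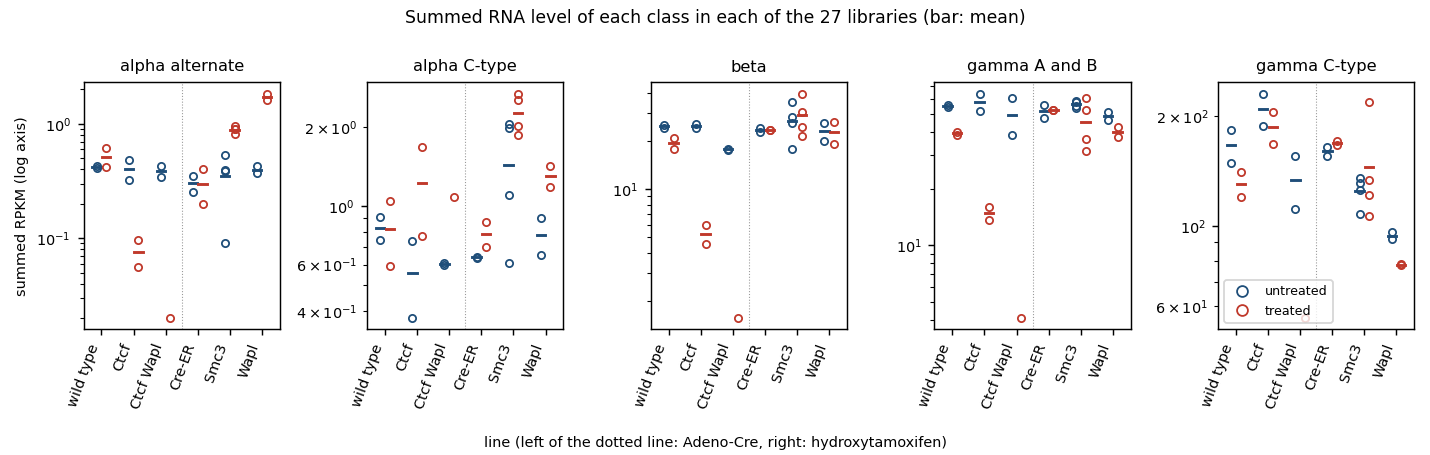
Summed RPKM (log axis) of each class of protocadherin in each of the 27 libraries, untreated in blue and treated in red, by line, with a bar at the mean of groups of more than 1 library. Beta and gamma A and B sums drop in the treated Ctcf and Ctcf Wapl lines and overlap in the Smc3 line, while the alternate alpha sum is higher in the treated Smc3 and Wapl lines and lower in the treated Ctcf lines.

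Deletion of Smc3, a core subunit of cohesin, changed few members, with beta calls higher and gamma A and B calls lower. The limma test called 2 of 18 gamma A and B members lower and 2 of 11 beta members higher, where 15% of all genes were called (5.6% lower, 9.37% higher), so the 4 of 33 members are near the background. Pcdhga12, the last A and B member, stood at 3.96, 4.76, 4.77 and 5.10 RPKM in untreated clones 1 to 4 and at 3.50, 2.40, 1.48 and 1.54 after treatment (log2 fold change -0.85, SE 0.19, adjusted p 0.00567). Pcdhgb7 stood at 2.17, 2.40, 2.44 and 2.46 untreated and at 1.77, 1.43, 0.547 and 0.758 treated (log2 fold change -0.70, adjusted p 0.00474). Neither overlapped between groups, and clone 1, the fl/fl line, had the smallest drop in both.

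Pcdhb18 stood at 0.234, 0.630, 0.918 and 0.947 RPKM untreated and at 1.17, 1.86, 1.20 and 1.33 treated (log2 fold change 0.52, SE 0.13, adjusted p 0.012). Outside the treated Smc3 libraries Pcdhb18 reached 1 RPKM only in untreated Ctcf clone 2 (1.01). It thus entered the test through the group where it was high, which limits its call. Pcdhb16 stood at 0.740, 1.08, 1.303 and 1.404 untreated and at 1.79, 2.34, 1.64 and 1.46 treated (log2 fold change 0.40, adjusted p 0.0358). These lie next to members that stayed below the threshold: Pcdhb17 overlapped between its groups (3.83 to 7.66 against 5.43 to 9.63 RPKM). C-type members had fold changes above 0 without a call, at 0.47 for Pcdhac2 (adjusted p 0.0942), 0.72 for Pcdhgc4 (0.0619), 0.42 for Pcdhgc5 (0.0659) and 0.14 for Pcdhgc3 (0.666).

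Along the gamma array the share left was smaller toward the end. The first 6 tested A and B members kept a median of 93.1% of their untreated level (68.0 to 105%), the middle 6 kept 77.3% and the last 6 kept 65.1% (47.5 to 78.9%). The Spearman correlation of position with the log2 fold change was -0.70 over 18 members, and -0.73 with the percentage left. On the log2 scale it was -0.47, -0.52, -0.59 and -0.74 in clones 1 to 4, so each clone had the same sign. As percentages, the end of the array kept more in the Ctcf line and less in the Smc3 line. The difference between these patterns was not tested. Over the 11 beta members the correlation in Smc3 cells was 0.14.

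**Figure D4:**
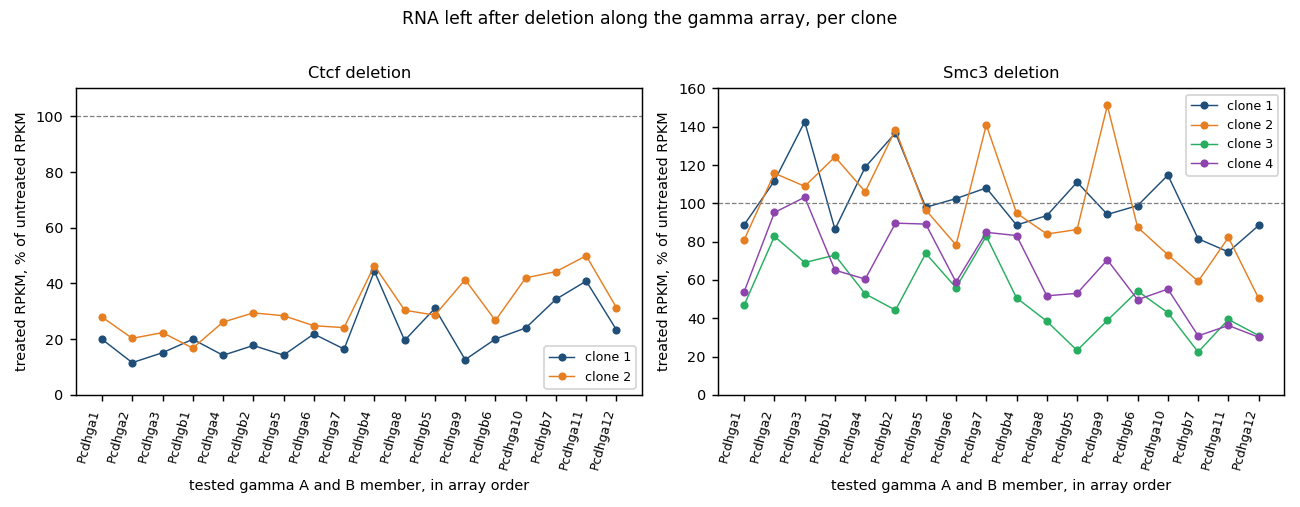
Treated RPKM as a percentage of untreated RPKM of the same clone for the 18 tested gamma A and B members, in array order, after Ctcf deletion (left, 2 clones) and Smc3 deletion (right, 4 clones); the dashed line is 100%. The medians given here use the treated mean over clones as a percentage of the untreated mean, not the values of single clones. In the Ctcf line they go from 19.1% in the first 6 members to 28.9% in the last 6. In the Smc3 line they go from 93.1% to 65.1%, with clones 3 and 4 below clones 1 and 2 at most members.

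The Smc3 clones did not behave alike. As sums, beta members ranged over the clones from 70.03 to 170% of the untreated level and gamma A and B members from 55.0 to 104%, both with overlapping groups. In clones 1 and 2, 1 and 3 of 11 beta members were lower after treatment, and 10 and 11 of 18 A and B members. In clones 3 and 4 these counts were 7 and 9 beta members and 18 and 17 A and B members. With the clone as a replicate block 13 members were called, 8 lower (7 gamma A and B, 1 beta) and 5 higher (2 beta, 2 gamma C-type and Pcdhac2), where 36.6% of all genes were called. Without both libraries of clone 1 the calls were 9, of which 7 were lower, where 13.3% of all genes were called; leaving out single libraries gave 3 to 11, the most without the treated clone 1 library and 7 without the untreated clone 4 library. Macrophage markers summed to 28.7 to 1110 RPKM in untreated and 19.2 to 171 in treated Smc3 libraries, and neural and glial markers to 56.1 to 67.7 and 31.2 to 67.9; their part in these values was not tested.

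Alternate alpha members, too low to test with the others, were higher after Smc3 deletion. They summed to 0.0902, 0.394, 0.536 and 0.386 RPKM in untreated clones 1 to 4 and to 0.957, 0.895, 0.902 and 0.810 after treatment, without overlap, from 132 reads against 413. Most of the difference came from Pcdha9 (15 reads untreated, 108 treated) and Pcdha10 (44 and 115). In a fit with no filter on low values, where 10.1% of all genes were called, Pcdha9 (log2 fold change 0.25, adjusted p 0.000168) and Pcdha10 (0.17, adjusted p 0.0476) were called higher and Pcdhgb8 lower (-0.21, adjusted p 0.0206). These members lie below the level set by the filter, so these calls rest on low values. The difference between the Smc3 lines and the hydroxytamoxifen control was called for 0 of 33 members by limma (3 at an unadjusted p under 0.05), where 1.23% of all genes were called.

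Deletion of Wapl called 0 of 33 tested members by limma (5 at an unadjusted p under 0.05), where 2.43% of all genes were called. Beta members were at 99.6% of their untreated sum with overlapping groups, and gamma A and B members at 82.1% (80.7 and 83.3% in the 2 clones), without overlap. Pcdhgc3 stood at 88.8 and 93.0 RPKM untreated and at 73.0 and 74.2 treated (log2 fold change -0.30, adjusted p 0.657). Pcdhgc4, Pcdhgc5 and Pcdhac2 had log2 fold changes of 0.37, 0.34 and 0.38, with adjusted p of at least 0.512. With the clone as a replicate block 1 gamma A and B member was called lower, where 14.6% of all genes were called in either direction. Macrophage markers summed to 1739 and 2479 RPKM in the untreated Wapl libraries and to 483 and 1468 in the treated ones; their part in these values was not tested.

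The alternate alpha array was the exception after Wapl deletion. Its members summed to 0.427 and 0.369 RPKM untreated and to 1.84 and 1.603 treated, 432 and 435% of the untreated level in the 2 clones, from 74 reads against 350. Pcdha7 went from 1 read in each untreated library to 36 and 18 treated (0.0103 and 0.0116 RPKM to 0.320 and 0.206). Pcdha9 went from 5 reads in all to 45, Pcdha5 from 1 to 31, Pcdha6 from 1 to 23 and Pcdha10 from 40 to 108. Of 11 alternate members with reads, 9 had both treated libraries above both untreated ones, Pcdha1 and Pcdha2 being the others, where 20.2% of all genes with RPKM above 0 in at least 2 libraries did. With no filter on low values limma called 6 of 11 alternate alpha members higher (Pcdha5, Pcdha6, Pcdha7, Pcdha9, Pcdha10 and Pcdha11), where 1.36% of all genes were called higher and 0.671% lower; Pcdha7 had a log2 fold change of 0.32 (adjusted p 6.42e-06) and Pcdha10 of 0.33 (adjusted p 0.0208). In the same fit Pcdhb4 was called higher (0.41, adjusted p 0.0178) and Pcdhgb8 lower (-0.44, adjusted p 0.00586). All members called in this fit lie below the level set by the filter, most with few reads, which limits these calls.

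Pcdhb4 had 12 and 8 reads in the untreated Wapl lines and 42 and 33 in the treated ones, where it stood at 0.522 and 0.529 RPKM. Pcdhgb8 stood at 0.938 and 0.982 untreated and at 0.391 and 0.504 treated; its untreated level in other lines was 0.05 to 0.333 RPKM. Against the hydroxytamoxifen control, limma called 0 of the 33 tested members (0 at an unadjusted p under 0.05), where 0.143% of all genes were called, and 3 members when no filter was used (Pcdha5 and Pcdha7 higher, Pcdhgb8 lower), where 0.266% of all genes were called.

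Hydroxytamoxifen in Rosa26(CreER/+) cells, the control for Cre activation, called 0 of 33 members by limma (0 at an unadjusted p under 0.05), where 0% of all genes were called. The median log2 fold change was -0.05 over beta and 0.01 over gamma A and B members. Beta members were at 99.01% and gamma A and B members at 101% of their untreated sums, and alternate alpha members at 99.3% (56.7 and 158% in the 2 clones, 69 reads in each group). Pcdhgc3 stood at 151 and 161 RPKM untreated and at 163 and 166 treated. The counts of the induction controls were not alike: 33 of 33 members were below 0 with Adeno-Cre and 18 of 33 with hydroxytamoxifen, a difference that was not tested.

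Genes lying between or beside the arrays gave 0 calls of 14 tested in the Ctcf, Smc3 and Wapl lines. In the double deletion Diap1, an actin regulator beside the gamma array, stood at 10.2 ± 0.647 RPKM untreated and 18.1 treated (log2 fold change 0.78, adjusted p 0.042), and Hars, a tRNA synthetase gene, at 34.4 ± 5.68 and 54.4 (0.66, adjusted p 0.0128); both were called higher, with all genes at 0.175. Of all genes, 7.66% were called in the Ctcf line, 15% in the Smc3 line, 2.43% in the Wapl line and 15.8% in the double deletion. With Adeno-Cre in wild-type cells the share was 3.24%. Counts of neighbours, regulators, cadherins and markers are read against these shares. Among 28 tested regulators and partners of the protocadherins, 1 was lower (Ctcf) and 1 higher (Stag1) in the Ctcf line. Stag1, a cohesin subunit, had a mean of 4.14 ± 0.117 RPKM (SD, n = 2) in untreated libraries and of 7.48 ± 0.435 in treated ones (log2 fold change 0.72, adjusted p 0.0192). In the Smc3 line the counts were 3 lower and 4 higher, with Stag1 higher again (0.92, adjusted p 0.00012), in the Wapl line 0 and 1, and in the double deletion 2 and 5.

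Protocadherins that lie outside the clusters gave 0 calls of 9 tested after Ctcf deletion by limma. The counts that follow are read against the shares of all genes given above. In the Smc3 line Pcdh1, Pcdh18 and Pcdh20 were called lower, in the Wapl line Pcdh7 was, and in the double deletion Pcdh18 was lower (log2 fold change -2.27, adjusted p 0.000549) and Pcdh10 higher (1.41, adjusted p 0.00943). Of 10 classical cadherins, 0 were called after Ctcf deletion, 1 lower and 2 higher after Smc3 deletion, 3 higher after Wapl deletion and 2 lower in the double deletion. Summed over 19 neural and glial markers, Tubb3 included, levels were 57.7 and 72.1 RPKM in the untreated Ctcf lines and 190 and 195 after Adeno-Cre, 58.4 and 63.5 against 163 in the double deletion, and 105 and 113 against 162 and 226 in wild-type cells. Of the 11 tested, Tubb3, a neuronal tubulin, was called higher in all 3 (log2 fold changes 2.94, 1.92 and 1.62), and 1 or 2 of the 19 markers were at 0 in each of these groups. Without Tubb3 the sum over the other 18 was 35.5 to 56.1 RPKM untreated and 31.9 to 49.2 treated in the Ctcf line, 64.2 to 74.3 and 59.9 to 74.8 in wild-type cells, and 28.5 to 36.4 against 53.2 in the double deletion. Of 14 fibroblast markers, 3 (Col1a2, Pdgfra and Pdgfrb) were called lower in the double deletion and 0 after Ctcf deletion or Adeno-Cre in wild-type cells. The part of these markers in the protocadherin changes was not tested.

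Nascent RNA was compared in Ctcf(fl/fl) Wapl(fl/fl) cells from columns in which the authors had pooled libraries, given as TPM (scaled by length and column total) over the gene body, without replicates and therefore without a test. Each column sums to a fixed total, so the values are shares of the nascent signal. No column was headed as wild-type cells given Adeno-Cre, so an effect of the virus cannot be told apart from that of the deletions here. A row is counted as lower where log2(TPM + 1) differed by at least 1. After Adeno-Cre 29 of 57 members were lower and 0 higher, where 17.2% of all rows were lower and 3.46% higher: 19 of 19 gamma A and B members, 3 of 3 gamma C-type members, 7 of 22 beta members and 0 of 13 alpha members. The median difference was -1.91 for gamma A and B, -1.43 for gamma C-type, -0.67 for beta and -0.41 for alternate alpha members, against -0.45 for all rows. Gene bodies of an alpha or gamma array run into one another and end at the same place, so their rows are not independent measurements.

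Along the gamma array the nascent signal after Adeno-Cre was lowest relative to untreated at the start. Pcdhga1 went from 10.6 to 2.06 TPM (19.4%), Pcdhga7 from 12.8 to 2.65 (20.6%) and Pcdhga12 from 14.7 to 3.72 (25.3%). Pcdhgc3 went from 21.1 to 6.17 TPM (29.2%), Pcdhgc4 from 19.0 to 6.40 (33.7%) and Pcdhgc5 from 19.1 to 6.95 (36.4%). The share left was thus larger from each C-type promoter on, in the same order as the promoters lie. Along the alpha array it went from 53.3% at Pcdha1 (1.20 to 0.640 TPM) to 60.1% at Pcdha12 (1.42 to 0.854), 69.4% at Pcdhac1 (1.46 to 1.01) and 104% at Pcdhac2 (1.52 to 1.58). Pcdhac2 and Pcdhgc5, the last members of their arrays, kept the most nascent signal. In RNA-seq of the same genotype both stood above the untreated libraries in the single treated library, without a call, where 51.3% of all genes did. Over the gene body of Pcdhgc5 the nascent signal fell to 36.4%. Gene bodies of the upstream gamma members run into that of Pcdhgc5, so this value is not of its own promoter alone. Whether RNA and nascent RNA from that promoter went opposite ways is therefore not shown.

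Many beta members were listed at 0 in nascent RNA: 2 of 22 untreated and 12 after Adeno-Cre. Pcdhb17 went from 2.00 to 0.413 TPM, Pcdhb18 from 2.22 to 0.268 and Pcdhb19 from 4.76 to 1.72. Pcdhb22, whose RNA was among those that changed most, went from 0.914 to 1.32 TPM, and Pcdhb21 from 1.03 to 0.995. Beta members shared the same ratios, 144.5% at Pcdhb6, Pcdhb13 and Pcdhb22 and 36.13% at Pcdhb15 and Pcdhb19, as ratios of few reads do. Reads were not recovered for these columns, so the counting error of single beta values is not known. The wild-type GRO-seq column, normalized on its own and not compared here, gave 7.93 to 12.1 TPM for gamma A and B members, 16.1 to 18.7 for gamma C-type members, 0.217 to 0.290 for alternate alpha members and 0.00938 to 2.97 for beta members.

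**Figure D5:**
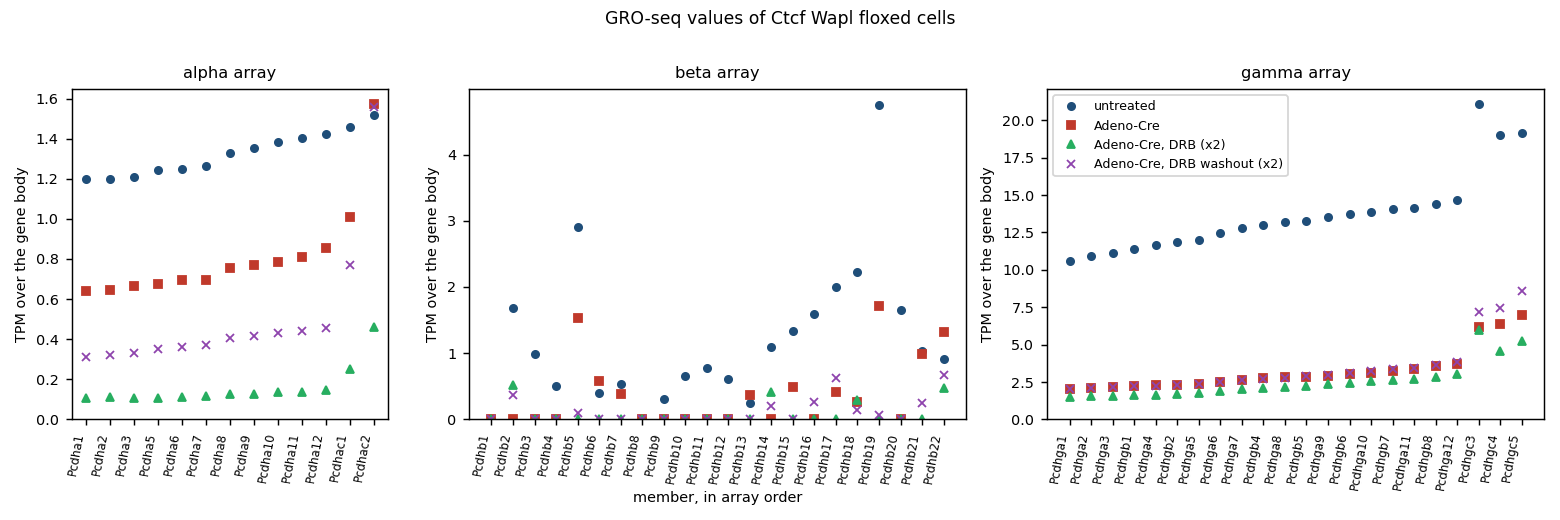
GRO-seq values (TPM over the gene body, linear axis with its own scale per panel) of each member in array order in Ctcf Wapl floxed cells: untreated, after Adeno-Cre, after Adeno-Cre with DRB, and after washout of DRB, the last 2 multiplied by 2 to the column total of the others. In the gamma array the 3 treated conditions lie together far below untreated and step up at Pcdhgc3; in the alpha array DRB lies lowest and washout between DRB and Adeno-Cre up to Pcdhac2.

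DRB, an inhibitor of the kinase that releases paused polymerase into elongation, was added for 3.5 h to Adeno-Cre treated cells, and a further library was taken 1 d after its removal, with 1 library each. Their columns sum to 100000 against 200000 in the pooled columns and were multiplied by 2. With DRB, 2 of 57 members (Pcdhb5 and Pcdhb19, from 1.53 and 1.72 TPM to 0) were lower by at least 1, where 20.2% of all rows were. That count depends on the added value: at 0.25 TPM it was 24, 22 of them lower, where 41.8% of all rows were lower.

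The arrays differed in the share left with DRB. Since columns sum to a fixed total, these are shares of the remaining signal and not amounts of nascent RNA. The median difference of log2(TPM + 1) was -0.27 for gamma A and B and -0.35 for gamma C-type members. It was -0.61 for alternate alpha, -0.75 for alpha C-type and 0 for beta members, against -0.41 for all rows. Gamma A and B members kept 71.9 to 82.2% of their Adeno-Cre value (Pcdhga1 from 2.06 to 1.48 TPM, Pcdhga12 from 3.72 to 3.01), while Pcdhgc3 kept 97.0% (6.17 to 5.98), Pcdhgc4 71.5% and Pcdhgc5 75.3%. Alternate alpha members kept 15.9 to 17.1% (Pcdha1 from 0.640 to 0.107, Pcdha12 from 0.854 to 0.146), Pcdhac1 24.9% and Pcdhac2 29.3% (1.58 to 0.462). Beta members at 0 went from 12 to 18 of 22.

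At 1 d after DRB removal the gamma array was back at its Adeno-Cre share of the column total. A and B members stood at 98.4 to 104% of the Adeno-Cre value and Pcdhgc3, Pcdhgc4 and Pcdhgc5 at 116, 117 and 124%. Alternate alpha members stood at 48.4 to 54.8%, Pcdhac1 at 76.4% and Pcdhac2 at 98.8% (1.56 TPM). Against DRB itself 0 of 57 members differed by at least 1, where 17.9% of all rows did. Against Adeno-Cre 2 of 57 were lower by at least 1 (Pcdhb5 and Pcdhb19), where 5.59% of all rows were. None of these columns returned the gamma array to the untreated level of 10.6 to 14.7 TPM for A and B members. The untreated, DRB and washout comparisons against Adeno-Cre share the Adeno-Cre column, and that of washout against DRB uses columns of the others.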

How the data were processed

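RNA-seq values are RPKM as deposited by the authors in the main table (27 libraries) and in a separately normalized table (2 libraries); GRO-seq values are TPM as deposited by the authors, over gene bodies, in columns that pool libraries or hold 1 library. The submitters' processing notes name TopHat 1.3.1 and 1.4.1, Bowtie 0.12.5, HTSeq and bedtools, with build mm9, without saying which step each served; how reads in shared exons were counted is not given in the sources used here. Pcdhgb8 stood under 1 RPKM in every library while Pcdhgc3 stood over 45, so reads of the shared exons were not counted to every member.

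Groups come from the labels. limma 3.58.1 (R 4.3.3; trend and robust) was fitted to log2(RPKM + 1) of 12604 genes (those at 1 RPKM or more in 2 or more libraries) over 27 libraries in 12 groups, with 15 residual degrees of freedom, and p-values were adjusted by Benjamini-Hochberg. Whole reads were recovered for 18140 of 18155 genes (99.9%, within 0.02 reads), and 56 members among them. On simulated data for the Ctcf comparison (12604 genes), 64% of changes of 1 and 95% of changes of 2 on the log2 scale were recovered, with 7 false calls. The changed genes were drawn from those with a mean level above that of most tested beta members. Noise was drawn for each library on its own, without a correlation within clones. The recovery therefore does not describe low members. The labels give the same clone for a treated library and its untreated counterpart; their deviations correlated at 0.47 to 0.76, and at -0.20 in Cre-ER cells. Replicates are clones, so p-values measure the spread between clones.

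Named members are, per comparison and array, the 3 called members with the largest fold changes, called members against the majority of their array, C-type members, the first and last members and the highest member. The members and gene lists were chosen with earlier results of these data known. Members with few reads are given with reads. Alternatives were other added values, no filter, other scalings, the clone as a block, own-library fits and leaving out single libraries. ChIP-seq of the same series was left out, since it is outside the RNA tables described.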

Additional observations from a re-analysis of the deposited data

Results flagged for a closer look

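In 76 groups of 4 libraries tested for a lone value (Smc3 lines), 2 were far from the others, where chance gives about 1 in 20. Pcdhgb4 in untreated Smc3 cells stood at 2.525 RPKM in clone 3 against 2.976 to 3.038 in the other 3. Pcdhb14 in treated Smc3 cells stood at 1.975 RPKM in clone 2 against 1.012 to 1.168 in the others.

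The change after deletion differed from the change after Adeno-Cre in wild-type cells for 2 members in Ctcf cells, Pcdhb22 by -1.67 and Pcdhga2 by -1.25 on the log2 scale. In Ctcf and Wapl floxed cells it differed for Pcdhga7 by -2.33, Pcdhb22 by -1.97, Pcdhb17 by -1.64, Pcdhga12 by -1.57, Pcdhgb6 by -1.57, Pcdhga3 by -1.43, Pcdhga5 by -1.43, Pcdhga2 by -1.41 and Pcdhga4 by -1.16. These differences were tested in the limma fit with adjusted p under 0.05, and both sets use the same wild-type libraries.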

How the results depend on the processing

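Counts of called members kept within 1.5 times under other scalings, added values of 0.25 and 0.1 RPKM, limma without trend, and the replicate block (the same clone in both arms) for the Ctcf deletion, the double deletion and the hydroxytamoxifen control. The exceptions follow. The replicate block gave 13 members for Smc3, 1 for Wapl, 2 for Adeno-Cre and 8 for Ctcf net of Adeno-Cre, and changed no other count by over 1.5 times; with Cre-ER clone numbers crossed, an alternative chosen after seeing the data, the 3 hydroxytamoxifen comparisons gave 0, 0 and 0. With no filter the counts were 7 for Smc3, 8 for Wapl and 3 for Wapl net of hydroxytamoxifen. Fits of a comparison's own libraries called 0 for Ctcf, 1 for Smc3, 0 for the double deletion, 1 for Ctcf net of Adeno-Cre and 0 for the double deletion net of Adeno-Cre. Added values of 0.25 and 0.1 gave 5 and 7 for Ctcf net of Adeno-Cre and 16 and 19 for the double deletion net of Adeno-Cre; rescaling and removal of the length trend each gave 1 for the former. Leaving out Smc3 clone 1, also chosen after seeing the data, gave 9.

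Leaving out 1 library gave 11 to 17 for Ctcf, 18 to 23 for the double deletion, 3 to 11 for Smc3, 0 to 2 for Ctcf net of Adeno-Cre, 3 to 13 for the double deletion net of Adeno-Cre and 0 to 1 for the double deletion net of Ctcf. For DRB, the count of 2 became 24 with an added value of 0.25 and 5 with median-of-ratios rescaling. The gamma position correlation after Ctcf deletion was 0.59 with an added value of 0.25 and 0.71 on the percentage, which was not planned. As geometric means, sums for Wapl became 100.9% (beta) and 110% (gamma C-type), and beta for hydroxytamoxifen 100.3%, the other side of 100%; the beta position correlation of 0.79 for Adeno-Cre became -0.23 with 21 members. The cause was not tested. Distance from the last member was not run, since the builds differ and a rank from the end only turns the sign. Alpha values rest on few reads.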

Other observations

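In untreated cells Pcdhgc5 differed between lines, a comparison chosen after its values were seen. In the 8 libraries of lines with the Rosa26 Cre-ER allele it stood at 1.48 to 4.57 RPKM (median 2.66), and in the 6 libraries of lines without it at 5.42 to 10.7 (median 7.22), without overlap. Pcdhgc3 (88.8 to 161 against 105 to 222) and Pcdhgc4 (1.16 to 2.17 against 0.849 to 2.69) overlapped between these libraries, as did Pcdhac2 (0.589 to 2.05 against 0.376 to 0.915). The lines were not made for this comparison, and no test was run.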
